A study of Mus musculus with 3 samples.

Results

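The interleukin 1 family ligands were followed in healing mouse skin over 3 days of wound repair. They comprise 9 genes of the 19938 named genes measured, taken by their symbols in the annotation of the array. These are Il1a, Il1b and Il1rn, the interleukin 36 group Il1f5, Il1f6, Il1f8 and Il1f9, which carry older symbols here, and Il18 and Il33. The animals were inbred C57Bl/6 mice aged 6 weeks, each with a 1.5 cm2 excision through the full thickness of the back skin, and total RNA was measured. The groups were wound tissue of day 10, day 12 and day 14 after wounding, and epidermis was taken along with dermis while unwounded skin and the follicles of the wound edge were avoided. Tissue of 3 mice was pooled for each day and hybridised to 1 array, so no unwounded skin and no replicate stood beside it, and every difference below compares single pools with no test and no replicate error.

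The interleukin 1 family consists of related cytokines that alarm the tissue after injury and recruit immune cells. Interleukin 1 alpha and beta act on the same receptor and are held back by the receptor antagonist that Il1rn encodes. The interleukin 36 agonists, made chiefly by keratinocytes, act on a receptor of their own, and the product of Il1f5 is their antagonist. Interleukin 1 beta and interleukin 18 are made as inactive precursors that caspase 1 cuts within inflammasomes, whereas interleukin 33 is a nuclear protein of barrier and stromal cells that is released when cells are damaged.

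Il1a, Il1f6 and Il1f8 reached a 2-fold difference of day 12 over day 10, and Il1b was the member that reached it for day 14 against day 12. Promoter sequences are printed for those of them with an entry in the RefSeq promoter table of GRCm38.p6, in which 8 of the 9 members were matched by symbol. Each runs 5′ to 3′ from 250 bases before to 50 bases after the annotated transcript start. Capitals mark the TATA motif (TATAAA) and the AP-1 motif (TGANTCA), both searched on either strand.
Il1a promoter (GRCm38.p6, chr2:129309923-129310222, minus strand): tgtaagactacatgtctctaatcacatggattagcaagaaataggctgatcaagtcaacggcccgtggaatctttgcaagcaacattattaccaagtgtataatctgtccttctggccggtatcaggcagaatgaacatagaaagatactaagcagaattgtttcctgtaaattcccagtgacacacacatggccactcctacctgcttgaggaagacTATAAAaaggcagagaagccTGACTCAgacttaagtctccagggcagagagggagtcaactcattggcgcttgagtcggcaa
Il1b promoter (GRCm38.p6, chr2:129371090-129371389, minus strand): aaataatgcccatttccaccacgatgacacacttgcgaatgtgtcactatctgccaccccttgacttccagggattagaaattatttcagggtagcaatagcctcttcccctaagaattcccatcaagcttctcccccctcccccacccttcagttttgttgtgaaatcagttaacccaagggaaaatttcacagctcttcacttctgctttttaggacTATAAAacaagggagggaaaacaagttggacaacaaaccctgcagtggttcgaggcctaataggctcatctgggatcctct
Il1f8 promoter (GRCm38.p6, chr2:24152922-24153221, plus strand): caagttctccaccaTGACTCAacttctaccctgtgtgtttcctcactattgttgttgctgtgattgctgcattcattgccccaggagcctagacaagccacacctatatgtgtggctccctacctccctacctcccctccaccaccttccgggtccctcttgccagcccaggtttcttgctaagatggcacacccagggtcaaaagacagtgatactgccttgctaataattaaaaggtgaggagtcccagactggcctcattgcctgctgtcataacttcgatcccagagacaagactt
Il1a and Il1b each held TATAAA, beginning 32 and 31 bases before the start, a motif found in 13.6% of the 32851 promoters counted. Promoters of 1 chromosome of the table, which holds no member, were left out of that count. An AP-1 motif began 12 bases before the start of Il1a and 236 bases before that of Il1f8, against 7.81% of the promoters counted with at least 1 such motif. Of the remaining members, the first of 3 listed Il1rn promoters held an AP-1 motif. TATAAA, on either strand, also lay in the third Il1rn window, the Il18 window and both Il33 windows, and in the second of these it began 29 bases before the start. The NF-kB motif, which 5.80% of the promoters counted contained, was not in any of the 12 windows listed for the members. These matches describe letters in a window and not the binding of a factor.

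Each member was measured by 1 probe set, and all 9 lay above the median of named genes by mean level, the lowest at percentile 76.4. Values are log2 expression as deposited, and levels of different genes are not set against each other, since probes differ in brightness. A technical scale came from 383 genes above the median level with a pair of probe sets. The standard deviation of a single probe set's difference was 0.10 for day 12 over day 10, 0.08 for day 14 over day 12 and 0.14 for day 14 over day 10. It measures the array, and variation between mice is not part of it. Defining markers of the labelled epidermis and dermis were high, with the keratins Krt5 and Krt14 and the collagen Col1a1 at percentiles 99.86, 99.91 and 99.97 of mean level. The pools also differed in Y-linked transcripts. Eif2s3y stood at 5.49, 9.59 and 8.38 and Uty at 5.49, 9.001 and 7.84 on day 10, day 12 and day 14. Xist stood at 12.30, 12.05 and 12.28. With 1 pool per day, the difference in Y-linked transcripts cannot be told apart from that of day, and its part in the results was not tested.

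Most ligand genes were higher on day 12 than on day 10. Of the 9 members, 8 were higher and only Il33 was lower, with a median log2 difference of 0.64 against 0.00 over all named genes. Of all named genes 25.5% were higher, 34.5% were lower and 40.0% were equal. Among genes above the median level 32.8% were higher and 45.3% lower. A 2-fold higher value or more was found for 3 members, beside 0.787% of all named genes and 1.31% of those above the median level. No member was 2-fold lower, a size reached by 0.130% of all named genes. At the smaller size of 1.5-fold, 6 members were higher on day 12 than on day 10, beside 2.33% of all named genes. For day 14 against day 12, 4 of the 9 members differed by no more than the standard deviation of a single probe set, as did 68.9% of all named genes, and Il1b alone of the members was 2-fold lower or more. Outside the central 95% of genes above the median level lay Il1a, Il1f6 and Il1f8 for day 12 against day 10, Il1b for day 14 against day 12, and Il1a, Il1f6 and Il1b for day 14 against day 10. Every other member lay inside it in each of these comparisons. The 3 comparisons share arrays, so their values are not independent of each other.

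**Figure D1:**
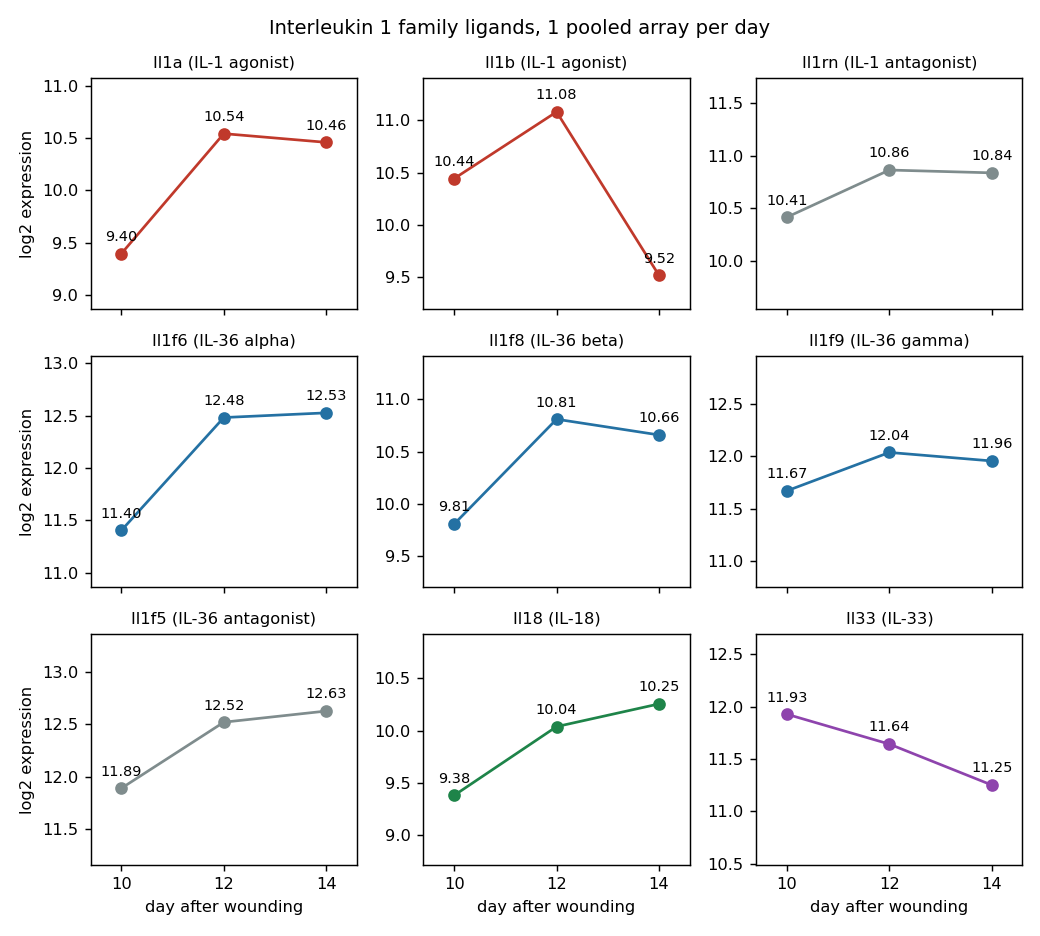
Log2 expression (vertical axes, each spanning the same number of log2 units) against day after wounding for the 9 ligand genes, 1 point per pooled array. Il1a, Il1f6 and Il1f8 step up at day 12 and are still above their day 10 values on day 14. Il1b drops to 9.52 on day 14, and Il33 is lower on each later day.

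Il1a encodes interleukin 1 alpha, which is stored in keratinocytes and released when they are damaged. Its log2 values were 9.395, 10.54 and 10.46 on day 10, day 12 and day 14. The day 10 array was the low one, and the later arrays stood close together. The difference of day 12 against day 10 was 1.15, matched or exceeded by 0.577% of all named genes. On day 14 Il1a was still 2.09-fold higher than on day 10, and its step of −0.08 against day 12 was no larger than the standard deviation of a single probe set.

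Il1b encodes interleukin 1 beta, made mainly by activated myeloid cells. Its values were 10.44, 11.08 and 9.52 on the 3 days in order. Day 12 was the highest array and day 14 the lowest. Day 12 stood 1.56-fold above day 10, and day 14 stood 2.95-fold below day 12. Only 12 named genes, Il1b included, had a day 14 minus day 12 difference as low as its −1.56. Against day 10, day 14 differed by −0.92. Of all named genes, 0.196% were lower by 2-fold or more on day 14 against day 12, and 0.0552% were higher by that size, which no member reached upwards.

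The pair of interleukin 1 agonists thus parted after day 12. The change of Il1b between day 12 and day 14 was 2.79-fold lower than that of Il1a, and over the whole span from day 10 to day 14 it was 3.96-fold lower. These are ratios of changes, not of levels.

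Il1rn, the gene of the receptor antagonist, had values of 10.41, 10.86 and 10.84 on day 10, day 12 and day 14. It was 1.37-fold higher on day 12 than on day 10 and then differed by −0.03, a step whose sign turned under quantile normalization. Agonist and antagonist changed unequally. From day 10 to day 12, the change of Il1a exceeded that of Il1rn 1.62-fold, while that of Il1b exceeded it 1.14-fold. Between day 12 and day 14, the change of Il1b was 2.90-fold lower than that of Il1rn.

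Among the interleukin 36 genes, Il1f6 (interleukin 36 alpha) had the largest difference. Its values were 11.40, 12.48 and 12.53 on day 10, day 12 and day 14, and the day 10 array was again the low one. Day 12 was higher than day 10 by 1.08, and day 14 was higher than day 10 by 1.12. The step of 0.04 from day 12 to day 14 was within the standard deviation of a single probe set. With Il1a, Il1f6 was 1 of 2 members past 2-fold higher in the comparison of day 14 with day 10, beside 1.25% of all named genes. None was 2-fold lower, beside 0.512%. At 1.5-fold, 5 members were higher on day 14, beside 3.11%.

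Il1f8 (interleukin 36 beta) stood at 9.81, 10.81 and 10.66 on the 3 arrays. Its day 12 minus day 10 difference of 1.001 lay at the edge of the 2-fold size. It was 0.99 when each array was centred on its median over genes, which left 2 members past that size. On day 14 it was 0.15 lower than on day 12 and 0.85 higher than on day 10.

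Il1f9 (interleukin 36 gamma) varied least among the agonists, with values of 11.67, 12.04 and 11.96. The difference was 0.37 for day 12 against day 10 and 0.29 for day 14 against day 10. Its step of −0.08 from day 12 was within the standard deviation of a single probe set.

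Il1f5, the gene of the interleukin 36 receptor antagonist, had values of 11.89, 12.52 and 12.63. It was 1.55-fold higher on day 12 than on day 10 and 0.74 higher on day 14 than on day 10. From day 10 to day 12, the change of Il1f6 exceeded that of Il1f5 1.36-fold and the change of Il1f8 exceeded it 1.29-fold, whereas that of Il1f9 was 1.20-fold lower. The antagonist thus changed by an amount between those of the agonists. By day 14, the change of Il1f8 from day 10 exceeded that of Il1f5 by 0.11, less than the standard deviation of a single probe set.

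Il18, whose product drives interferon gamma release by lymphocytes, had values of 9.38, 10.04 and 10.25. Each later array was the higher one. The steps were 0.66 and 0.22, and day 14 was 0.87 above day 10. Il18bp, which encodes a soluble protein that binds and blocks interleukin 18, stood at 8.90, 9.02 and 8.90, with no difference between day 14 and day 10.

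Il33 was the only member lower on day 12 than on day 10. Its values were 11.93, 11.64 and 11.25 on day 10, day 12 and day 14, and each later array was the lower one. The steps were −0.29 and −0.39, and day 14 was 1.598-fold below day 10. A day 14 minus day 10 difference as low as its −0.68 was found in 2.05% of all named genes, and the central 95% of genes above the median level ran from −0.73 to 0.88. At a size of 1.5-fold, Il33 and Il1b were the 2 members lower on day 14 than on day 10, beside 2.98% of all named genes.

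**Figure D2:**
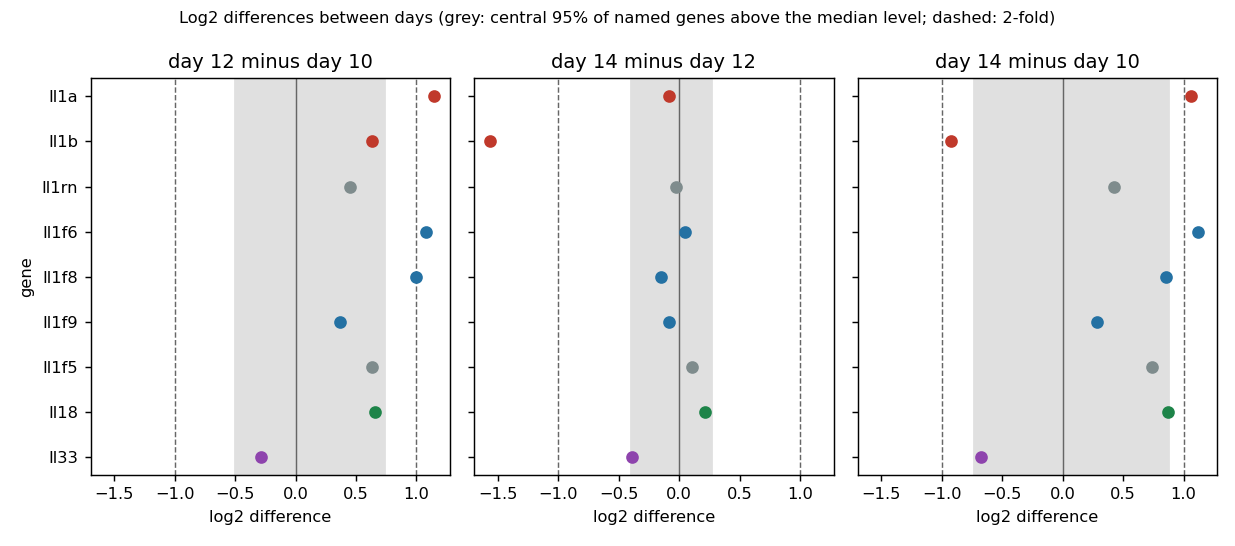
Log2 differences between days (horizontal axes) for the 9 ligand genes, grouped by role. The grey band is the central 95% of 9969 named genes above the median level and the dashed lines mark 2-fold. Il1a, Il1f6 and Il1f8 lie right of the band for day 12 minus day 10, and Il1b lies at −1.56 for day 14 minus day 12.

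One further ligand gene of the family, Il1f10, had the same value of 5.91 on all 3 arrays, at percentile 18.0 of mean level. An identical value on the 3 arrays occurred in 23.1% of all probe sets and can come from summarising few arrays, so it is not a precise measurement of no difference.

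The receptor genes differed little between days, as did most named genes. Of 11 listed receptors and decoys 9 were measured, and Il1r1 and Il1rl1 were not analysed here. None of the 9 differed by 2-fold in any comparison, and their median difference was 0.00 for each pair of days. All named genes likewise had a median of 0.00, and at most 1.25% of them passed 2-fold in either direction of a comparison. Of the 9 receptors and decoys, 4 had an identical value on the 3 arrays. Il1rl2, the interleukin 36 receptor gene, stood at 11.03, 11.03 and 11.02. The accessory protein gene Il1rap, whose product serves the interleukin 1, 33 and 36 receptors, stood at 9.36, 9.45 and 9.45. The decoy receptor gene Il1r2 was 9.79 on each day to 2 decimals, and the inhibitory receptor gene Sigirr had an identical value of 7.87 on all arrays. Il18r1 had values of 7.15, 7.43 and 7.33, and Il18rap was 6.98 throughout. Il1rapl1 and Il1rapl2, receptor-like genes of the nervous system, held 5.20 and 4.86 on each array, below the lower quartile of named genes.

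Genes that process the ligands varied one by one. Of 17 measured genes of inflammasomes and caspases, 12 were higher and 1 lower on day 12 against day 10, beside 25.5% and 34.5% of all named genes. The median difference was 0.16 against 0.00 over all named genes. Nlrp10, an NLR gene of the epidermis, had the largest difference, with values of 8.46, 9.80 and 10.14. It was 2.53-fold higher on day 12 than on day 10 and was the only gene of the list past 2-fold. Among all named genes 0.787% were 2-fold higher in that comparison. Pycard, which encodes the inflammasome adaptor ASC, stood at 9.53, 10.23 and 10.38, and the difference of 0.70 between day 12 and day 10 was close to that of Il18. The sensor gene Nlrp3 stood at 7.65, 8.06 and 7.49, high on day 12 and lowest on day 14 as Il1b was. Naip2, a sensor of bacterial proteins, followed the same order at 8.996, 9.38 and 8.76, and Naip6 stood at 7.77, 8.18 and 7.92. Casp1 itself differed by 0.18 on day 12 against day 10 and by −0.01 on day 14 against day 12.

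Other proteases known to cut ligands of the family were listed as well. All 11 were measured. Past 2-fold were 2 genes, Mcpt4 and Mmp3, higher on day 12 than on day 10, beside 0.787% of all named genes. On day 14 against day 12, 1 gene, Mmp3, was past 2-fold lower, beside 0.196% of all named genes. For day 14 against day 10, Mcpt4 was 3.79-fold higher and Mmp9 was 2.15-fold lower. Among all named genes 1.25% were 2-fold higher and 0.512% were 2-fold lower in that comparison. The mast cell chymase gene Mcpt4 stood at 8.63, 9.93 and 10.56, and the related Cma1 at 6.80, 7.21 and 7.55. The stromelysin gene Mmp3 had values of 9.79, 11.00 and 9.98, highest on day 12. The gelatinase gene Mmp9 had values of 12.07, 11.69 and 10.97, lower on each later array. The granzyme gene Gzmb stood at 8.003, 8.31 and 7.66. The neutrophil protease genes Elane, Prtn3 and Ctsg stayed between 6.11 and 6.41 on all arrays.

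The signalling genes downstream of the receptors had a median difference of 0.00 in each comparison, and none of the 25 measured reached 2-fold. The median over all named genes was also 0.00, and at most 1.25% of them passed 2-fold in either direction of a comparison. An identical value on the 3 arrays was held by 6 of the 25 signalling genes. The largest differences within the list were in genes of feedback and signal relay. Zc3h12a, a ribonuclease that degrades cytokine transcripts, stood at 8.84, 9.42 and 9.48. Tnfaip3, which encodes the inhibitor A20, stood at 8.24, 8.79 and 8.47. The kinase gene Irak2 stood at 9.06, 9.59 and 9.405, the ligase gene Traf6 at 10.70, 11.01 and 11.17, and the NF-kB subunit gene Rel at 10.48, 10.91 and 10.91.

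The genes known to respond to interleukin 1 or 36 split by day. Of the 34 measured, 5 were past 2-fold higher and 4 past 2-fold lower for day 12 against day 10, with a median of 0.00, beside 0.787% and 0.130% of all named genes. For day 14 against day 12, 9 were past 2-fold lower and none past 2-fold higher, with a median of −0.17, beside 0.196% and 0.0552% of all named genes. The neutrophil attractant genes Cxcl3 and Cxcl2 stood at 7.71, 9.95 and 7.25 and at 8.92, 10.97 and 8.61, highest on day 12 as Il1b was. Nos2, the inducible nitric oxide synthase gene, had the same order of arrays at 7.90, 9.35 and 7.49, and Ptgs2, the cyclooxygenase 2 gene, at 10.32, 10.78 and 8.83. Cxcl5, which also attracts neutrophils, was lower on each later array, at 8.92, 7.81 and 6.79. Il6 was 5.62 on all 3 arrays, below the lower quartile. The list was drawn up with earlier results of these data known, so its counts are no independent evidence of a direction.

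**Figure D3:**
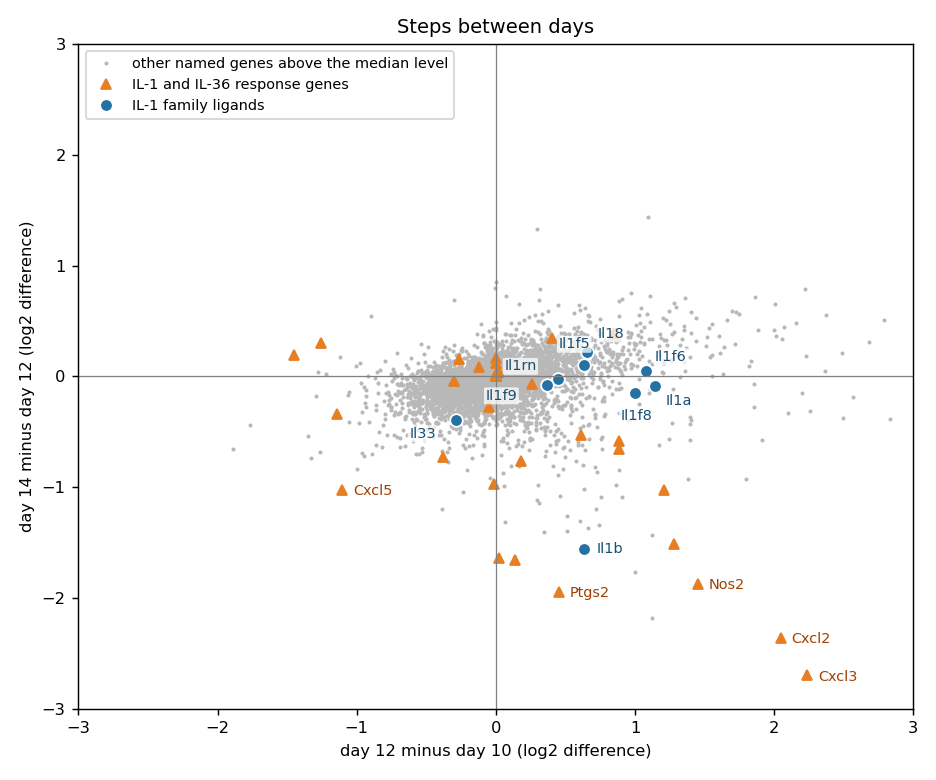
Day 12 minus day 10 (horizontal) against day 14 minus day 12 (vertical), both log2 differences, for the 9 ligands (circles), 34 response genes (triangles) and the named genes above the median level (dots). Il1a, Il1f6 and Il1f8 lie to the right near the horizontal line, while Il1b lies below it among Ptgs2, Nos2 and other response genes.

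Response genes of interleukin 33 and 18 were fewer and mostly of small difference. Of 12 measured, Gata3 and Ccl17 were past 2-fold higher for day 12 against day 10, beside 0.787% of all named genes. Arg1 was past 2-fold lower for day 14 against day 12, beside 0.196% of all named genes. Gata3, a transcription factor of type 2 lymphocytes and of the epidermis, stood at 9.30, 10.62 and 10.90, higher on each later array. The chemokine gene Ccl17 stood at 7.76, 9.02 and 8.60. Arg1 had values of 11.37, 11.88 and 10.63, highest on day 12 and lowest on day 14. Retnla, a type 2 macrophage gene, stood at 5.07, 5.10 and 5.46, and Il4 and Il5 also lay below the lower quartile on all arrays. Ifng, the main target of interleukin 18, stood at 6.38, 6.44 and 6.44.

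**Figure D4:**
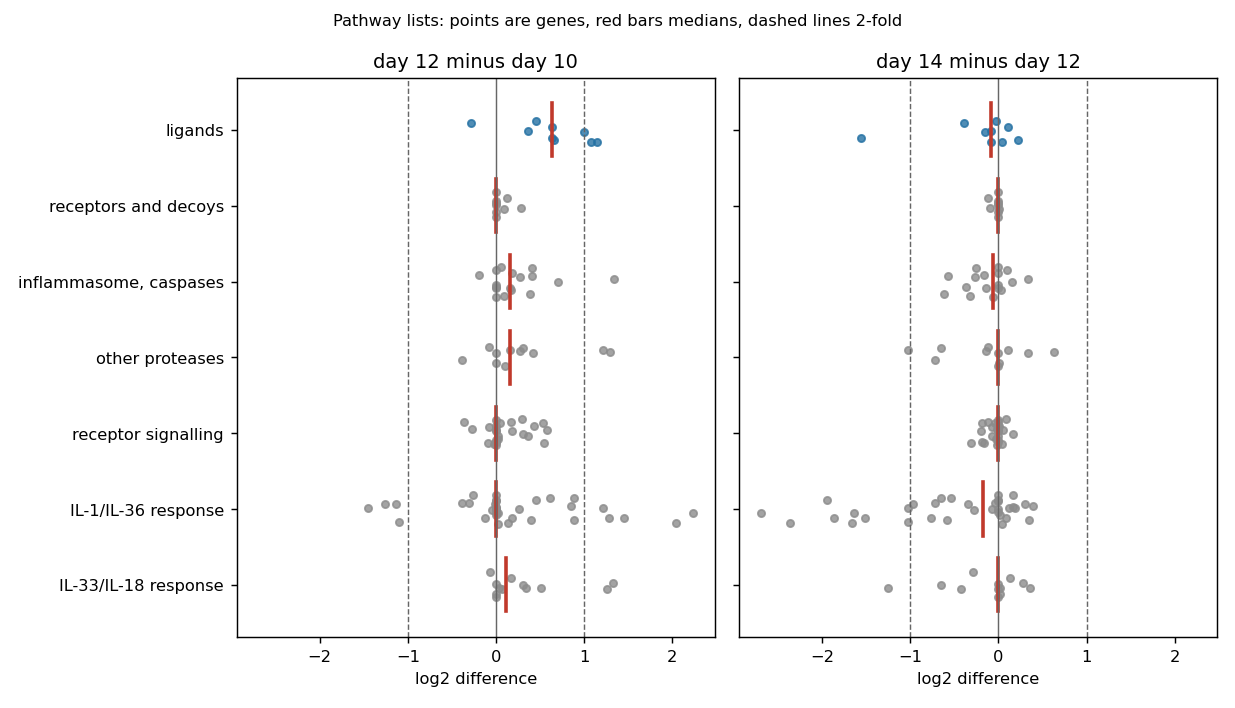
Log2 differences (horizontal axes) of the ligands and of 6 lists of the pathway for day 12 minus day 10 and day 14 minus day 12. Points are genes, red bars are medians and dashed lines mark 2-fold. The median of the ligands is 0.64 in the left panel, those of the receptors and of the signalling genes are 0.00 in both panels, and the response genes reach −2.70 in the right panel.

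For each member that spanned at least 1 log2 unit, the 4 most similar genes were sought among 9968 others by the Euclidean distance between the 3 centred values. Nearest to Il1a were Serpinb11, Krt78, Egr2 and Il1f6, at distances of 0.05 to 0.09. Nearest to Il1b were Lce3a, Lce3f, Cd14 and Pla2g4d, at 0.11 to 0.20, and Lce3a stood at 10.63, 11.41 and 9.83. Lce3a and Lce3f are late cornified envelope genes, and Cd14 encodes the lipopolysaccharide co-receptor of myeloid cells. Nearest to Il1f6 were Smpd3, Lce1l, Lce1d and Tprg, at 0.02 to 0.07, and nearest to Il1f8 were Ccl22, Muc15, Egr2 and Gbp8, at 0.07 to 0.08. With 3 arrays many genes share an order, so the distances are a description.

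Cell type markers moved between the same arrays, and in these bulk samples more cells of a type and more RNA per cell cannot be told apart. As background, 25.5% of all named genes were higher and 34.5% lower on day 12 against day 10. Among genes above the median level 32.8% were higher and 45.3% lower. Every one of the 11 measured differentiated keratinocyte markers was higher on day 12 against day 10, by a median of 0.66. Their mean level was 11.34, 12.17 and 12.33 on day 10, day 12 and day 14, the order also seen for Il1f5, Il1f6 and Il18. For Il1f6 the step from day 12 to day 14 was within the standard deviation of a single probe set. Basal keratinocyte and wound keratinocyte markers had medians of 0.02 and 0.00 for day 12 against day 10. Sebaceous gland markers, of which 9 were measured, were all higher on day 12, with a median of 1.36 and mean levels of 8.04, 9.35 and 9.23. Of 14 dendritic and Langerhans cell markers 13 were higher on day 12 against day 10 and none was lower, by a median difference of 0.43, and their mean level was 9.05, 9.54 and 9.67. Of 10 mast cell markers 7 were higher and none was lower in that comparison, by a median difference of 0.29, with mean levels of 7.70, 8.17 and 8.37. The mast cell markers Tpsab1, Fcer1a and Ms4a2 stayed below the lower quartile of named genes on all arrays. The part of these lists in the differences of the ligands was not tested.

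Beside Il1b, 15 of 16 measured macrophage and monocyte markers were lower on day 14 against day 12, by a median difference of −0.23. The largest of these differences was −1.37, in Cd14. Their mean level was 10.71, 10.92 and 10.58, so that day 14 was the lowest array, as for Il1b. Lower on day 14 against day 12 were 30.8% of all named genes and 49.8% of those above the median level. Of 12 neutrophil markers 7 were lower and 2 higher on day 14 than on day 12, by a median difference of −0.08. Past 2-fold lower were 3 of them, namely Mmp8, Trem1 and Clec4d, beside 0.196% of all named genes. The mean level of the 12 markers was 7.64, 7.84 and 7.32. Ly6g, which defines mouse neutrophils, lay below the lower quartile at 5.92, 5.87 and 5.81, and the granule genes Elane and Camp held 6.37 and 6.50 on each array. The part of these markers in the difference of Il1b was not tested.

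Beside Il33, 11 of 12 endothelial markers were lower on day 12 against day 10, by a median difference of −0.33. On day 14 against day 10, 10 of 12 were lower, by a median difference of −0.50. The mean level of the endothelial markers was 10.60, 10.21 and 10.14. Lower on day 12 against day 10 were 34.5% of all named genes and 45.3% of those above the median level. For day 14 against day 10 these shares were 35.6% and 53.3%. Of 10 fibroblast markers 6 were lower, 2 higher and 2 equal on day 12 against day 10, by a median difference of −0.07. The largest of these differences were −0.80 in Tagln and −0.54 in Acta2, while Col1a1 and Col1a2 were equal on the 2 days. The mean level of the fibroblast markers was 12.63, 12.43 and 12.33. The mean levels of both lists thus had the order of arrays seen for Il33, and the part of these markers in the difference of Il33 was not tested.

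**Figure D5:**
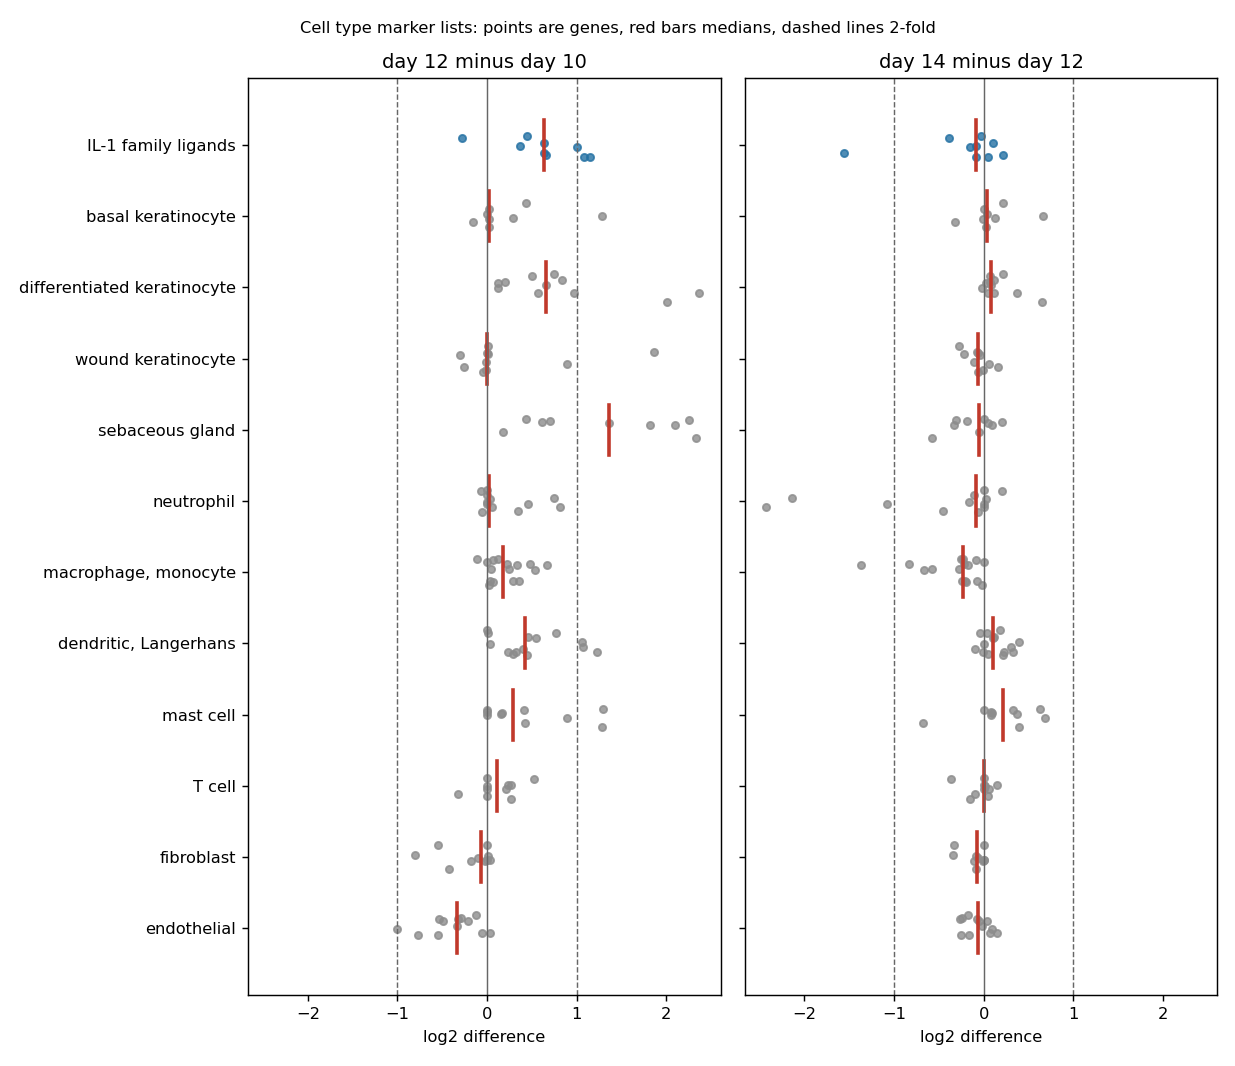
Log2 differences (horizontal axes) of the ligands and of 11 cell type marker lists for day 12 minus day 10 and day 14 minus day 12. Points are genes, red bars are medians and dashed lines mark 2-fold. In the left panel the medians are 0.66 for differentiated keratinocyte and 1.36 for sebaceous gland markers, and in the right panel the macrophage and monocyte median is −0.23.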

How the data were processed

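Wound tissue of 3 mice per day was pooled, and 250 ng of total RNA was amplified and labelled with biotin, per the labels' protocols. The table deposited by the authors holds log2 expression of 35556 probe sets on each array. Per the submitters' processing notes RMA and Partek 6.6 were involved, in roles not given, and the log2 scale was taken from the range of 4.37 to 14.09. The array medians were 7.53, 7.55 and 7.53, and values were used unscaled. Genome build and detection per probe set are not given in the sources used here, and precision is limited by the number of arrays. The platform annotation gave 1 symbol for 21789 probe sets, averaged per symbol to 19938 genes. The 13767 others were not used. Groups followed the time in the labels. With 1 array per day no test was made. Each member is given by its values and differences, later minus earlier day, with the share of all named genes past 2-fold as background and no filter on low values.

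Named were all members and measured receptors, the 5 genes of each further pathway list with the largest difference, and the 4 nearest genes of members spanning 1 log2 unit. Genes outside this rule (Casp1, Il6, Elane, Prtn3, Ctsg, Il4, Il5, Ifng, the Y-linked genes, Xist and single markers) were chosen after their values were seen. Members and lists were chosen with earlier results of these data known. Alternatives were arrays centred on their medians, quantile normalization and cyclic loess (limma 3.58.1), the brightest probe set, probe sets with several symbols, a 1.5-fold size and a level filter. The counting and distance steps were tested on simulated data. Python 3.11.15 and pandas 2.3.3 were used.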

Additional observations from a re-analysis of the deposited data

How the results depend on the processing

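With 1 pooled array per day, no array could be left out, and no error between animals can be given. No paired analysis was possible because each day has 1 sample. At a size of 1.5-fold in place of 2-fold, 6 members were higher on day 12 than on day 10, and 5 were higher and 2 lower on day 14 than on day 10, beside 2.33%, 3.11% and 2.98% of all named genes. The counts at 2-fold stayed within 1.5 times their main values under array centring, quantile normalization, cyclic loess and the level filter, and centring took Il1f8 to 0.99 for day 12 against day 10. Over the 27 member differences the largest shift was 0.05, under quantile normalization, which turned the sign of Il1rn for day 14 against day 12. The brightest probe set and the addition of probe sets with several symbols left all 27 as they were, since each member has 1 probe set.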

Other observations

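In the gene order of the GRCm38.p6 assembly, 7 of the 9 ligand genes lie on chromosome 2, while Il18 is on chromosome 9 and Il33 on chromosome 19. Il1f8, Il1f9, Il1f6, Il1f5, Il1f10 and Il1rn follow each other among the protein-coding genes of chromosome 2, and Il1a and Il1b are neighbours elsewhere on it. Within the first run Il1f10 held 5.91 on each array while the genes on both sides differed between days. Beyond Il1rn, Psd4 stood at 8.82, 9.29 and 9.22 on day 10, day 12 and day 14, and its difference of 0.47 for day 12 against day 10 was close to the 0.45 of Il1rn. Pax8, the next gene, differed by 0.00. On the other side of Il1f8, Tbpl2 held 5.13 on each array.

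Beside Il1a, the mitotic gene Ckap2l stood at 9.09, 8.91 and 8.87. Il1bos, a transcript annotated opposite Il1b, held 5.34 on all 3 arrays while Il1b differed between them. It lay at percentile 7.5 of mean level, below the lower quartile, so the identical value is not a precise measurement of no difference. The genes on either side of Il33, Ranbp6 and Trpd52l3, held 8.65 and 6.08 on each array, the next ones, 9930021J03Rik and Uhrf2, stood at 9.57, 9.68 and 9.74 and at 9.96 throughout, and near Il18 the gene Sdhd stood at 10.34, 10.12 and 10.12.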
